A study of Onthophagus taurus with 96 samples.

Results

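Knockdown of doublesex (dsx) was examined in the genital tissue of female pupae of Onthophagus taurus, a horned dung beetle. The comparison takes 12 of the 96 RNA sequencing libraries of the series, chosen by their labels for tissue, sex and treatment, with 6 dsxRNAi libraries (S73 to S78) and 6 control libraries (S85 to S90). As larvae of the last instar, the females were given 0.5 μg of dsRNA (double-stranded RNA) for a stretch common to the male and female dsx transcripts (dsxRNAi), or 1 μg of dsRNA made from a cloning vector (control). The knockdown was systemic, the parents of these animals were caught in the wild, and pupae were dissected within a day of pupation. The tissue is the epidermis of the posterior abdominal segments, so each library mixes genital and other abdominal cells, and each came from a separate pupa. Both groups are the same sex, age and tissue, so they differ by label in the injected RNA and in its dose. The count table holds 17483 genes, and the libraries sum to between 5818852 reads (S89) and 12547995 reads (S77).

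The Doublesex protein is a transcription factor at the end of the insect sex determination cascade. Its RNA is spliced differently in the 2 sexes, and the resulting male and female proteins can act on different genes, or differently on the same genes. For the genitalia of this species, the original study reported no putative direct target shared by males and females. In insect genitalia Doublesex is known for directing which parts of the genital primordium grow in each sex. The counts used here are sums over a whole gene, so male and female dsx transcripts were not told apart.

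The tissue label was checked against the Hox genes of the posterior body. Abdominal-B (abd-b), which specifies the hindmost abdominal and genital segments, had 273 ± 61.8 CPM in dsxRNAi and 226 ± 38 CPM in control female genitalia (SD, n = 6 each; CPM are counts scaled by library size, here with TMM factors over all 96 libraries). In brains and in both horn tissues it stayed at 0.885 CPM or less in every library. The sex label was checked with OtauTmpM008670, a gene picked out after its values were seen because it separated the sexes in all brain and horn libraries. Its range was 27.9 to 98.9 CPM in 36 female and 13.7 to 26.5 CPM in 36 male brain and horn libraries. All 12 female genitalia libraries lay above all 12 male ones in this gene, including S89 with 46.8 CPM and S76 with 55.7 CPM.

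Library S89, a control, stood apart from the others, and so did the dsxRNAi library S76. Over log2(CPM + 1) of the 9935 genes tested, the correlation of S89 with the median profile of the other control females was 0.871, whereas with that of control male genitalia it was 0.959. For S76 the correlation was 0.892 with the other dsxRNAi females and 0.965 with control males. S77 also had a low correlation with the other dsxRNAi females, 0.874, but was at 0.814 with control males. Between single libraries, the median correlation was 0.92 over all 66 pairs of the 12 libraries, and 0.928 over the 55 pairs without S89. S89 also had the fewest reads. Results that S89 moves are therefore given with and without it, and the sample weights that limma's voom assigned were lowest for S89 (0.341), S77 (0.417) and S76 (0.485).

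These libraries lie along an axis that does not follow the treatment. The first principal component of the 12 libraries held 54.3% of the variance over genes and the second 13%. S77 (dsxRNAi) was at one end with −74.4, and S76 (dsxRNAi, 73.8) and S89 (control, 79.8) were at the other. The group means were 2.96 ± 51.4 in dsxRNAi and −2.96 ± 50.1 in control (SD, n = 6 each). Of 9935 genes, 3014 (30.3%) had a correlation with this component above 0.8 in size. The 24 genes of a cell cycle and replication list had a median correlation of 0.93 with it, the cuticle and chitin list −0.83, muscle markers −0.80, immunity genes −0.77 and cuticle tanning genes −0.71. The summed level of the cell cycle list was 2010 CPM in S76 and 612 CPM in S77, against 2580 CPM in S89 and 595 CPM in S87. The summed level of the tanning genes ran the other way, with 717 CPM in S76 and 24000 CPM in S77, against 539 CPM in S89 and 21600 CPM in S87. What the component stands for was not tested.

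The targeted gene is described first. In the O. taurus gene models used by the authors (v0.5.3), dsx is OTAU004153 on the minus strand of scaffold 241, from 699490 to 703641. Its level in S73 to S78 was 9.0, 12.9, 40.9, 49.2, 2.99 and 30.3 CPM after dsxRNAi, and in S85 to S90 it was 18.7, 57, 8.96, 37, 140 and 62.6 CPM in controls (scaled over the 12 libraries, as are the values below unless another scale is named). The groups overlapped, since the control S87 was lower than 5 of the 6 dsxRNAi libraries, and the highest value of all was that of S89. The mean was 24.2 ± 18.7 CPM after dsxRNAi and 54.1 ± 47.1 CPM in controls, a ratio of 0.447 (SD, n = 6 each; two-sided exact permutation test, p = 0.165). Without S89 the mean was 23.7 ± 18.3 CPM after dsxRNAi and 36.1 ± 22.9 CPM in controls, a ratio of 0.657 (exact permutation test, p = 0.333), with 6 dsxRNAi and 5 control libraries scaled anew. The difference in the level of dsx (dsxRNAi minus control) was −29.9 CPM with all libraries. In size this was smaller than the spread of the control libraries (SD), but not than that of the dsxRNAi libraries. Without S89 the difference was −12.4 CPM, smaller in size than the spread of either group. The exact permutation test could have reached p = 0.00216 in this design.

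Much of that spread ran along the first component. Recomputed with dsx left out, the component correlated with the dsx level within the dsxRNAi libraries (Pearson's r = 0.976, exact permutation p = 0.00139, adjusted p = 0.00278) and within the control libraries (r = 0.949, exact permutation p = 0.00278, adjusted p = 0.00348). Spearman's rho was 1.0 in each group (exact permutation p = 0.00278, adjusted p = 0.00371), so the order of the 6 libraries by dsx was their order along the component. Without the 2 libraries farthest from the median position, r was 1.0 within dsxRNAi and 0.984 within control. Over all 12 libraries r was 0.852 and rho 0.832 (permutation p = 0.00043 and 0.00125, adjusted p = 0.00172 and 0.00371), and without S89 r was 0.796 (permutation p = 0.00348, adjusted p = 0.00348) and rho 0.782 (permutation p = 0.00613, adjusted p = 0.00613). The adjustment was over these 4 sets of libraries. With the 2 farthest libraries left out, the pooled r was 0.821, or 0.719 without S89.

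**Figure D1:**
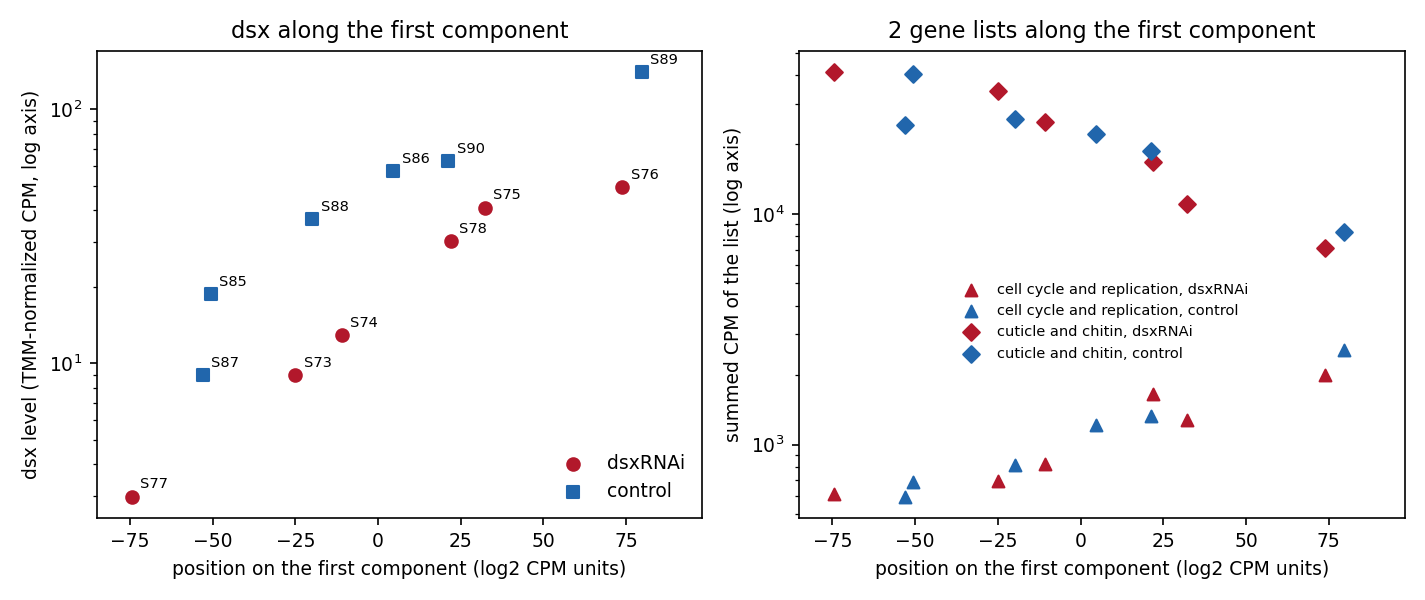
Left, the level of dsx (TMM-normalized CPM, log axis) in each of the 12 libraries against its position on the first principal component; right, the summed CPM (log axis) of the cell cycle and replication list (triangles) and of the cuticle and chitin list (diamonds) against the same positions. dsxRNAi libraries are red and control libraries blue; dsx climbs with the position in both groups, and the dsxRNAi points run below the control points, from 2.99 CPM in S77 to 49.2 CPM in S76, against 8.96 CPM in S87 to 140 CPM in S89.

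With the first component as a covariate in edgeR's quasi-likelihood test, dsx was lower after dsxRNAi by a log2 fold change of −1.36 (SE 0.228, unadjusted p = 8.13e-05, adjusted p = 0.162 over 9935 genes), whereas without the covariate the log2 fold change was −1.16 (SE 0.71, unadjusted p = 0.129, adjusted p = 1.0), or −0.61 without S89 (SE 0.673). Without S89 the fit with the covariate gave −1.55 (SE 0.229, adjusted p = 0.129). The covariate was computed from the same 12 libraries. In male genitalia the same test without a covariate gave −1.44 (SE 0.449, adjusted p = 0.783), with 11.6 ± 7.57 CPM after dsxRNAi and 31.5 ± 6.59 CPM in controls (SD, n = 6 each, scaled over the 24 genitalia libraries). The difference between the sexes in the response of dsx was 0.28 on the log2 scale (SE 0.864, females minus males, adjusted p = 1.0), or 0.81 without S89 (SE 0.835, adjusted p = 0.828).

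Across the transcriptome, 1 gene passed an adjusted p under 0.05 by the quasi-likelihood test of edgeR, adjusted after Benjamini and Hochberg over 9935 genes (0.0101%). It was dpr13, which fell, and no gene was called higher (0.0%). An unadjusted p under 0.05 was reached by 254 genes (2.56%), and the median log2 fold change of all genes tested was 0.0043. Without S89, 1 of 10032 genes (0.00997%) was called, again dpr13, and 297 (2.96%) had an unadjusted p under 0.05. DESeq2, run as an alternative, called 17 of 11282 genes with all 12 libraries (0.151%), 5 higher (0.0443%) and 12 lower (0.106%), and 20 of 13782 without S89 (0.145%). The 5 higher ones were awh, OtauTmpM010318, OtauTmpM005345, OtauTmpM008422 and OtauTmpA015138. Of these, OtauTmpM005345 (log2 fold change 21.49) and OtauTmpM008422 (6.29) had at most 84 and 39 reads in any library. OtauTmpA015138 (4.93) was high in few libraries, as described below. The 12 lower ones were dpr13, OtauTmpM012670, OtauTmpM003092, OtauTmpM013279, six3, OtauTmpM005065, OtauTmpM011431, OtauTmpA016726, OtauTmpM014088, OtauTmpA006141, OtauTmpM002920 and hig. Without S89 DESeq2 still called 9 of these 12, but not hig (adjusted p = 0.0969), OtauTmpM002920 or OtauTmpA006141 (adjusted p = 0.0891 each). With the first component as a covariate 4 genes were called (0.0403%), or dpr13 alone without S89, with the 24 genitalia libraries in one fit 5 (0.0478%), and with limma's voom and sample weights 3 (0.0302%), dpr13 in each. The groups did not overlap in 7 genes higher after dsxRNAi and 7 lower (0.0705% of genes tested each way), and without S89 in 12 higher (0.12%) and 14 lower (0.14%). With 12 libraries, random labels separate a gene's groups, in either direction, with a probability of 0.00216, the smallest p of the exact permutation test. The share seen with 12 libraries, 0.141% of genes tested in either direction, was below that probability. A lack of overlap, given below for several genes, is therefore not by itself evidence of a response.

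The gene dpr13 (OTAU009587) spans 37547 to 72766 on the plus strand of scaffold 690. In Drosophila the Dpr proteins are cell surface proteins with immunoglobulin domains that bind partner proteins on other neurons and take part in matching synaptic partners. Its level in S73 to S78 was 0.59, 0.477, 0.325, 0.685, 0.555 and 0.393 CPM after dsxRNAi, and in S85 to S90 it was 23.1, 25.4, 23.1, 32.8, 99.5 and 23.6 CPM in controls. The dsxRNAi values rest on 3 to 8 reads per library, 30 in all, against 1963 reads over the control libraries. All dsxRNAi libraries were thus near the limit of detection, and no control library came near them. The other 5 controls lay close together, between 23.1 and 32.8 CPM, and S89 was far above them. The mean was 0.504 ± 0.132 CPM after dsxRNAi and 37.9 ± 30.4 CPM in controls (SD, n = 6 each), or 25.6 ± 4.13 CPM in the 5 controls other than S89. The log2 fold change was −6.20 (SE 0.49, adjusted p = 0.000248 by edgeR's quasi-likelihood test). Without S89 it was −5.63 (SE 0.206, adjusted p = 1.32e-07). In these bulk libraries, fewer cells expressing dpr13 and less dpr13 RNA per cell cannot be told apart.

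Male genitalia had little dpr13 under either treatment. There dpr13 had 0.528 ± 0.325 CPM after dsxRNAi and 1.04 ± 0.676 CPM in controls (SD, n = 6 each, scaled over 24 libraries), too low to pass the filter of the male comparison. The female effect minus the male effect was −5.22 on the log2 scale (SE 0.69, interaction term, adjusted p = 0.00146), and −4.67 without S89 (SE 0.552, adjusted p = 0.000317). With control males near 0 a fall of that size was not possible in males, so this value restates the sex difference of the controls and does not show that the sexes respond differently. Control females were higher than control males by a log2 fold change of 5.32 (adjusted p = 0.000479), or 4.76 without S89, a comparison that shares the 6 control female libraries with the knockdown. On the scale of all 96 libraries, the dsxRNAi females ran from 0.31 to 0.634 CPM, within the range of the 12 male genitalia libraries, 0.233 to 1.93 CPM.

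Over all 16 groups of the series (scaled over 96 libraries), dpr13 was high in brains of either sex and treatment and in the genitalia of control females, and at most 4.43 CPM in any other library. Female brains had 30.8 ± 3.12 CPM after dsxRNAi and 27.7 ± 2.22 CPM in controls (SD, n = 6 each; log2 fold change 0.15, adjusted p = 0.999). Male brains had 29.4 ± 2.03 CPM after dsxRNAi and 28.5 ± 2.14 CPM in controls. These 4 brain groups overlapped. Female head horns had 1.13 ± 0.632 CPM after dsxRNAi and 2.19 ± 0.53 CPM in controls (log2 fold change −0.98, SE 0.393, adjusted p = 0.66), and no library of the thoracic horns exceeded 2.37 CPM.

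Since dpr13 is a neuronal gene in Drosophila, the other neuron markers were counted beside it. Of 14 matched neuron markers that the study does not list for this comparison, 12 were tested and none was called in either direction. Of these 12, 1 was lower with an unadjusted p under 0.05 (syn, synapsin, which coats synaptic vesicles), beside 2.56% of all genes tested. Without S89 none of the 12 had such a p. With the study-listed markers included, 15 were tested, of which 1 higher and 3 lower had such a p, and dpr13 was called. The median log2 fold change of the 12 was 0.02. Their summed level ran from 399 to 632 CPM after dsxRNAi and from 405 to 705 CPM in controls. The synaptic genes brp and snap25 had log2 fold changes of 0.16 and 0.09 (edgeR, unadjusted p = 0.66 and 0.439).

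The gene awh (Arrowhead, OTAU000364) was the gene with the smallest p among those higher after dsxRNAi. It codes for a LIM-homeodomain transcription factor that Drosophila needs for the nests of cells that form the adult abdominal epidermis, and it lies on scaffold 8 from 301649 to 303268 on the plus strand. Its level in S73 to S78 was 4.43, 5.72, 7.59, 8.81, 2.88 and 6.19 CPM after dsxRNAi, and in S85 to S90 it was 1.79, 1.4, 2.17, 1.88, 0.409 and 0.96 CPM in controls. The groups did not overlap, and S89 had the lowest value of all. The mean was 5.94 ± 2.13 CPM after dsxRNAi and 1.43 ± 0.655 CPM in controls (SD, n = 6 each). The log2 fold change was 2.05 (SE 0.387, adjusted p = 0.593 by edgeR's quasi-likelihood test), or 1.87 without S89 (SE 0.334, adjusted p = 0.333), so it did not pass the threshold in the female comparison. It passed with all 24 genitalia libraries in one fit (adjusted p = 0.0218), with limma's voom and sample weights (adjusted p = 0.0165) and with DESeq2 (adjusted p = 8.02e-05).

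The response of awh differed between the sexes. In male genitalia the difference ran the other way, with 4.09 ± 1.1 CPM after dsxRNAi and 7.17 ± 2.81 CPM in controls (SD, n = 6 each, scaled over 24 libraries; log2 fold change −0.79, SE 0.259, adjusted p = 0.783). The interaction was 2.84 on the log2 scale (SE 0.465, females minus males, adjusted p = 0.0189), and 2.65 without S89 (SE 0.417, adjusted p = 0.013). Together with dpr13, awh made up the 2 genes called for this interaction, dpr13 with the limit given above, among 10458 tested (0.0191%, or 0.00956% each way), and again among 10557 without S89 (0.0189%), while 4.12% had an unadjusted p under 0.05. In brains awh had 6.47 ± 1.02 CPM after dsxRNAi and 6.62 ± 1.04 CPM in controls in females (SD, n = 6 each, scaled over 96 libraries). In female thoracic horns it had 1.49 ± 1.24 CPM after dsxRNAi and 0.785 ± 0.443 CPM in controls, and in female head horns 1.07 ± 0.334 CPM after dsxRNAi and 0.592 ± 0.504 CPM in controls.

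**Figure D2:**
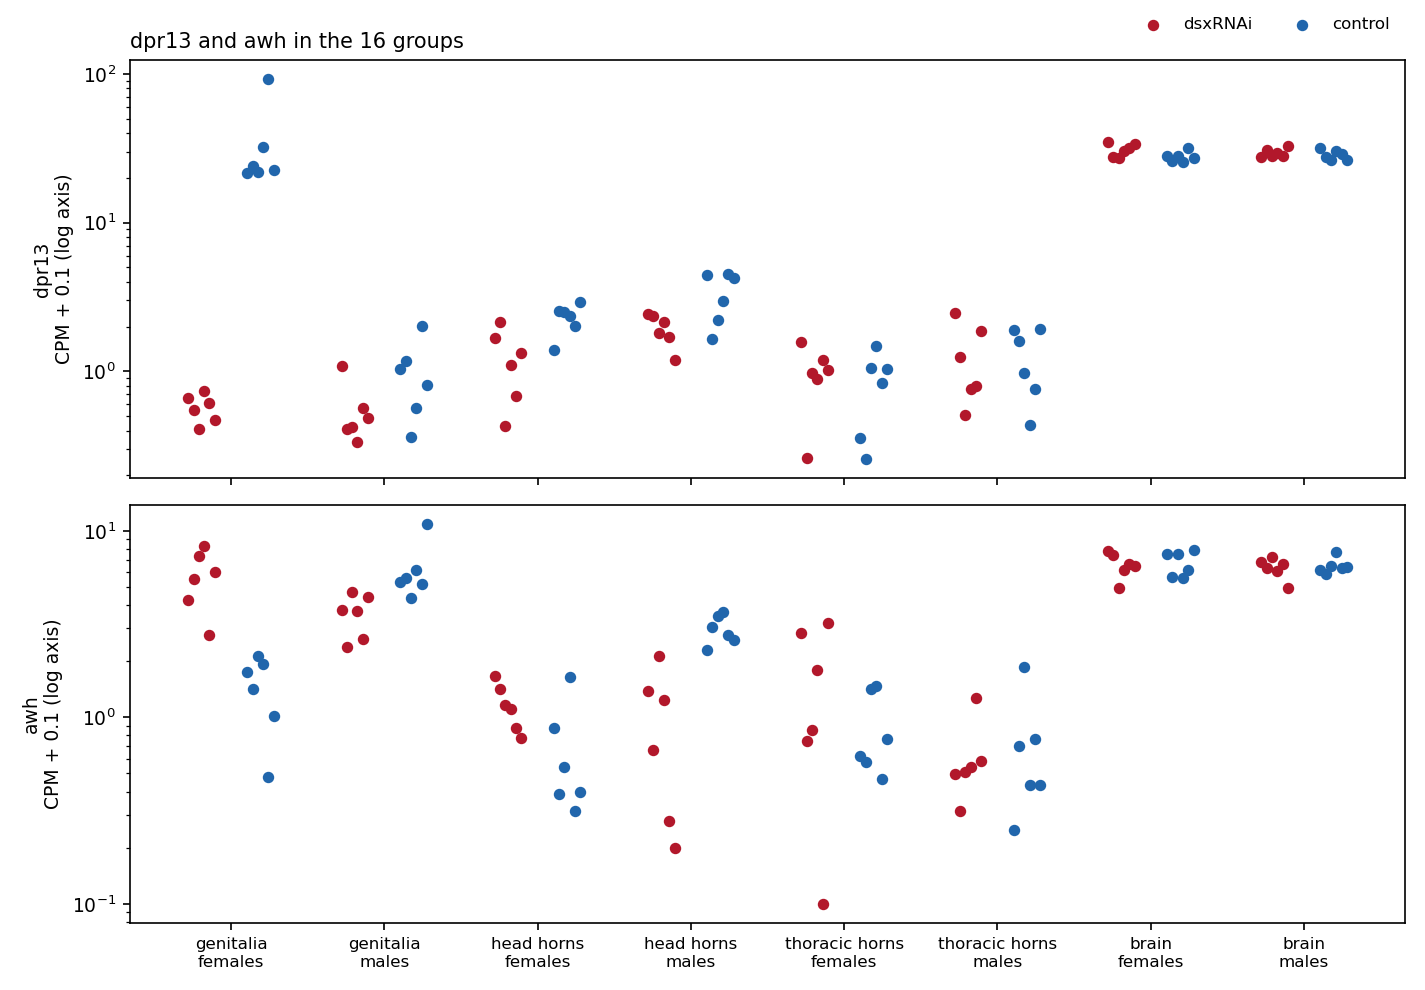
CPM + 0.1 (log axis, scaled over 96 libraries) of dpr13 (top) and awh (bottom) in every library of the 8 combinations of tissue and sex, dsxRNAi in red to the left of control in blue. In female genitalia the dsxRNAi libraries lie near the male level of dpr13, between 0.31 and 0.634 CPM, below the controls at 21.4 to 91.8 CPM, and for awh between 2.66 and 8.17 CPM, above the controls at 0.378 to 2.03 CPM.

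Further genes were lower after dsxRNAi without passing the threshold in the comparison of 12 libraries. OtauTmpM003092 (OTAU003092, scaffold 155, from 568072 to 588289) had 4.13, 1.03, 4.34, 5.82, 2.77 and 2.85 CPM after dsxRNAi, against 18.9, 29.9, 5.93, 28.6, 77.6 and 18.8 CPM in controls. The groups did not overlap, although the control S87, at 5.93 CPM, was next to the dsxRNAi library S76, and S89 was the highest. The log2 fold change was −3.10 (SE 0.569, adjusted p = 0.593), and −2.55 without S89 (SE 0.46, adjusted p = 0.333). OtauTmpM013279 (OTAU013279, scaffold 1800, from 44615 to 76695) had 3.98, 5.01, 8.35, 8.22, 3.88 and 2.75 CPM after dsxRNAi, against 9.36, 36.9, 9.97, 19.4, 41.9 and 22.2 CPM in controls, again with no overlap. Its log2 fold change was −2.11 (SE 0.427, adjusted p = 0.66), and −1.86 without S89. Neither gene carries a name in the gene models. With the first component as a covariate both were called (log2 fold changes of −3.01 and −2.09, adjusted p = 0.0416 each), but not once S89 was left out of that fit (−2.77 and −2.09, adjusted p = 0.143 and 0.131).

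OtauTmpM005065 (OTAU005065, scaffold 19) had 7.67, 7.87, 12.6, 5.22, 8.98 and 11.9 CPM after dsxRNAi, against 34.8, 22.8, 17.8, 12.3, 37.1 and 24.2 CPM in controls. The groups overlapped by 1 library a side, and the log2 fold change was −1.46 (SE 0.291, adjusted p = 0.66), or −1.30 without S89. The gene hig (hikaru genki, OTAU003428, scaffold 527) codes in Drosophila for a protein secreted into the synaptic cleft. It had 0.885, 0.398, 0.976, 2.74, 0.887 and 3.44 CPM after dsxRNAi, against 10.8, 8.08, 2.6, 4.88, 18.7 and 6.06 CPM in controls, and S87 was the control that overlapped. Its log2 fold change was −2.43 in females (SE 0.587, adjusted p = 1.0), against 0.72 in male genitalia (unadjusted p = 0.031), and the interaction was −3.15 (SE 0.66, adjusted p = 0.236). Without S89 the female value was −2.03. OtauTmpM014088 averaged 1.64 ± 0.23 CPM after dsxRNAi and 5.31 ± 2.59 CPM in controls, and OtauTmpA016726 averaged 11.2 ± 4.66 CPM after dsxRNAi and 29.2 ± 10.2 CPM in controls (SD, n = 6 each), with log2 fold changes of −1.68 and −1.38 (adjusted p = 0.779 each). The genes OtauTmpM011431, OtauTmpM002920 and OtauTmpM010797 complete the 10 with the smallest p among lower genes, with log2 fold changes of −2.34, −2.72 and −0.49. OtauTmpM010797, with the smallest of these changes, did not overlap between groups, with 8.12 to 10.5 CPM after dsxRNAi, below all controls at 11.2 to 14.5 CPM.

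Among higher genes, OtauTmpM010318 (OTAU010318, scaffold 234, from 53053 to 78675) was abundant and did not overlap between groups. It had 154, 140, 114, 125, 137 and 128 CPM after dsxRNAi, against 101, 75.9, 92.5, 82.8, 45 and 63.1 CPM in controls. Its log2 fold change was 0.80 (SE 0.176, adjusted p = 0.815), 0.68 without S89 (adjusted p = 0.512) and 0.87 with the first component as a covariate, where it was called (adjusted p = 0.0416), but not once S89 was left out of that fit (adjusted p = 0.112). The gene neta (Netrin-A, a secreted guidance factor for axons and cells) averaged 34.3 ± 8.68 CPM after dsxRNAi and 21 ± 4.9 CPM in controls (SD, n = 6 each). Its log2 fold change was 0.71 (SE 0.199, adjusted p = 1.0), or 0.70 without S89. The gene dscam4, of the Dscam family of cell adhesion proteins, had 5.02, 4.53, 14.9, 33.5, 6.54 and 20.9 CPM after dsxRNAi, against 0.597, 4.39, 4.63, 1.88, 3.41 and 7.39 CPM in controls. These overlapped, with S76 the highest, and the log2 fold change was 1.92 (SE 0.611, adjusted p = 1.0), or 1.89 without S89. Male genitalia averaged 36.9 CPM of dscam4 after dsxRNAi and 30.7 CPM in controls (scaled over the 24 genitalia libraries), and the 4 brain groups had means from 592 to 628 CPM (scaled over 96 libraries).

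The remaining genes among the 10 with the smallest p were OtauTmpM011657, which did not overlap between groups (9.89 ± 0.871 CPM after dsxRNAi and 7.37 ± 0.952 CPM in controls, SD, n = 6 each), cg34355 (12.9 ± 5.87 CPM after dsxRNAi and 6.07 ± 1.68 CPM in controls), OtauTmpA009466, OtauTmpA013056, OtauTmpM006852 and OtauTmpA015138. The last had a log2 fold change of 4.87 that came from few libraries, with 129 CPM in S77 and 20.2 CPM in S74, whereas the other 4 dsxRNAi libraries had 0.342 to 4.12 CPM and the controls 0.0 to 2.31 CPM.

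**Figure D3:**
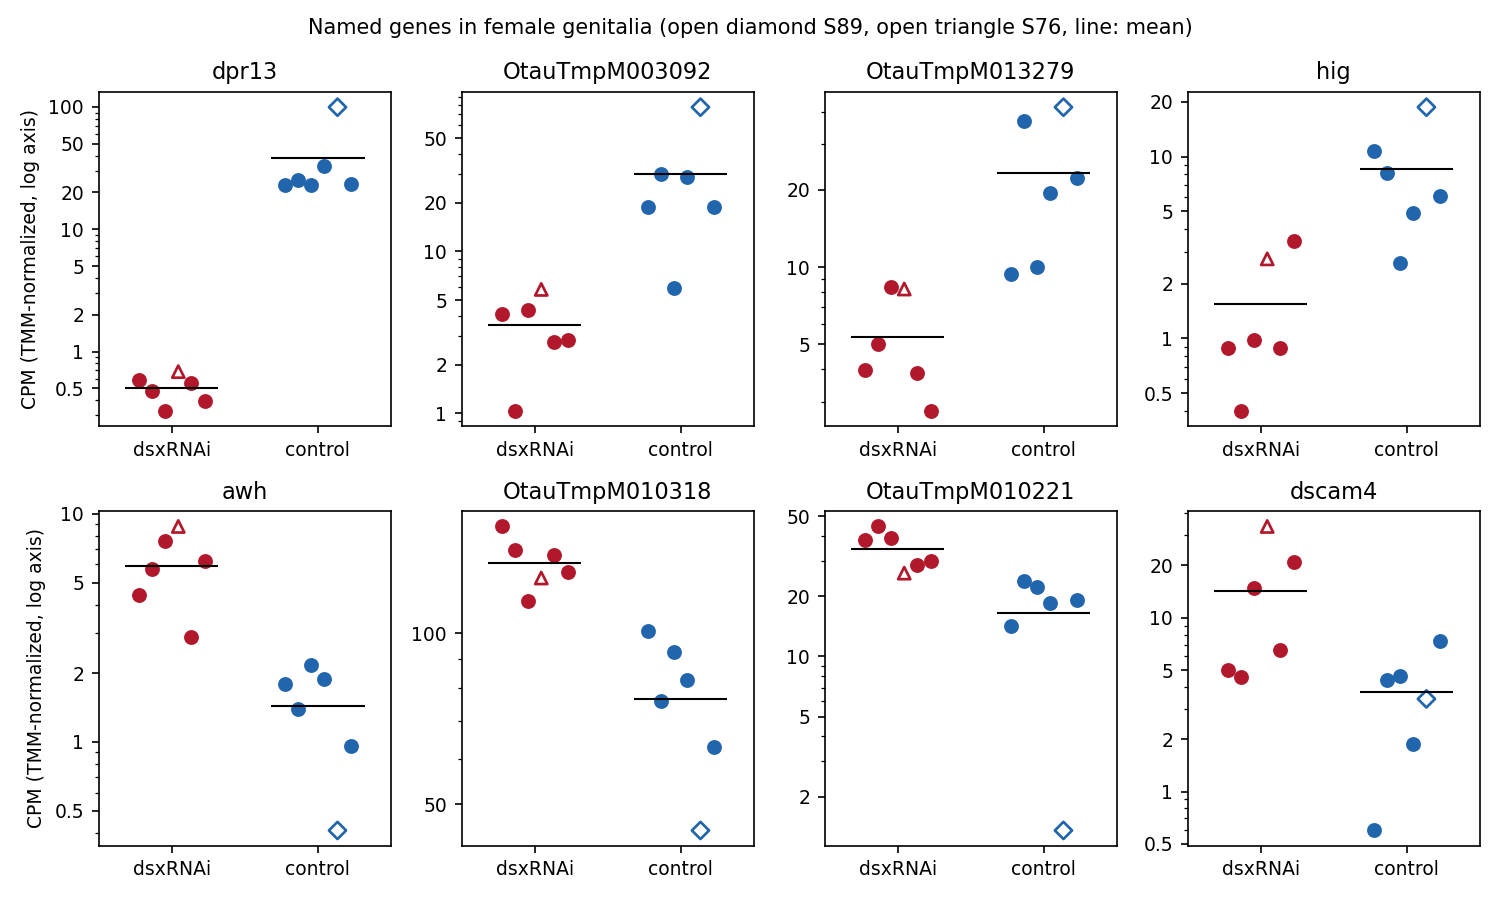
CPM (log axis, TMM-normalized) of 8 genes in each library of female genitalia, dsxRNAi (red, left) and control (blue, right), with the mean of the 6 libraries as a line, S76 as an open triangle and S89 as an open diamond. The upper genes are lower after dsxRNAi and have S89 as their highest value, up to 99.5 CPM in dpr13, and in awh, OtauTmpM010318 and OtauTmpM010221 below S89 is the lowest.

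S89 was the highest control in the 4 lower genes above (dpr13, OtauTmpM003092, OtauTmpM013279 and hig), and the lowest in awh, OtauTmpM010318, ara and OtauTmpM010221. The gene ara (araucan, an Iroquois homeobox gene that patterns epithelia) and its neighbour OtauTmpM010221 lie next to each other on the plus strand of scaffold 912, from 43161 to 72134 and from 81435 to 87423. OtauTmpM010221 had 37.8, 44.4, 39.1, 26, 28.5 and 29.8 CPM after dsxRNAi, against 14.1, 23.8, 22.3, 18.5, 1.36 and 19.1 CPM in controls, and ara had 15.5, 18.1, 16.6, 9.5, 8.1 and 12.9 CPM after dsxRNAi, against 5.38, 7.18, 9.4, 5.91, 0.409 and 7.75 CPM in controls. Without S89 their log2 fold changes were 0.81 and 0.91 (unadjusted p = 0.000825 and 0.00298, adjusted p = 0.75 and 1.0), against 1.05 and 1.16 with it (unadjusted p = 0.0378 and 0.0314). In female head horns both differed the other way, by −0.58 and −0.51 (unadjusted p = 0.00721 and 0.0187), and the 2 tissues were not tested against each other. The Iroquois gene mirr and the zinc finger gene salm, which also act in patterning, were at 1.89 and 1.39 CPM in S89, against means of 31.4 and 37.9 CPM over all 6 control females (scaled over 96 libraries).

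Without S89, the genes with the smallest p further included cg4678 (log2 fold change 0.76, against 0.45 with all libraries), OtauTmpM006869 (1.74 against 0.91), OtauTmpM010255 (0.82 against 0.69) and OtauTmpM010726 (5.51 against 1.05) among higher genes. Among lower genes they included OtauTmpS008533, with 12.8 to 29.4 CPM after dsxRNAi, against 33 to 93 CPM in 5 controls and 14.6 CPM in S89 (−1.68 against −1.48), and OtauTmpM017110, with 0.867 to 1.77 CPM after dsxRNAi, below all controls at 1.91 to 8.16 CPM (−1.72 against −1.58). Another, OtauTmpM012670 (OTAU012670, scaffold 943, from 63107 to 68595), had no read in any of the 6 dsxRNAi libraries, whereas controls had 2.99, 6.28, 13, 12.0, 0.0 and 4.14 CPM, with the 0 in S89. With all 12 libraries OtauTmpM012670 did not pass the filter on low counts. Without S89 it was tested but not called (adjusted p = 0.159 by edgeR's quasi-likelihood test). Against 3 reads over the whole dsxRNAi group (0.0505 CPM), the upper limit that a count of 0 allows, its mean was at least 127-fold lower than the 6.4 CPM of controls, or at least 152-fold lower than the 7.68 CPM of the controls without S89. Outside female genitalia, reads of this gene were counted in 2 libraries of the series, 46 in a dsxRNAi male genitalia library and 1 in a control female brain.

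**Figure D4:**
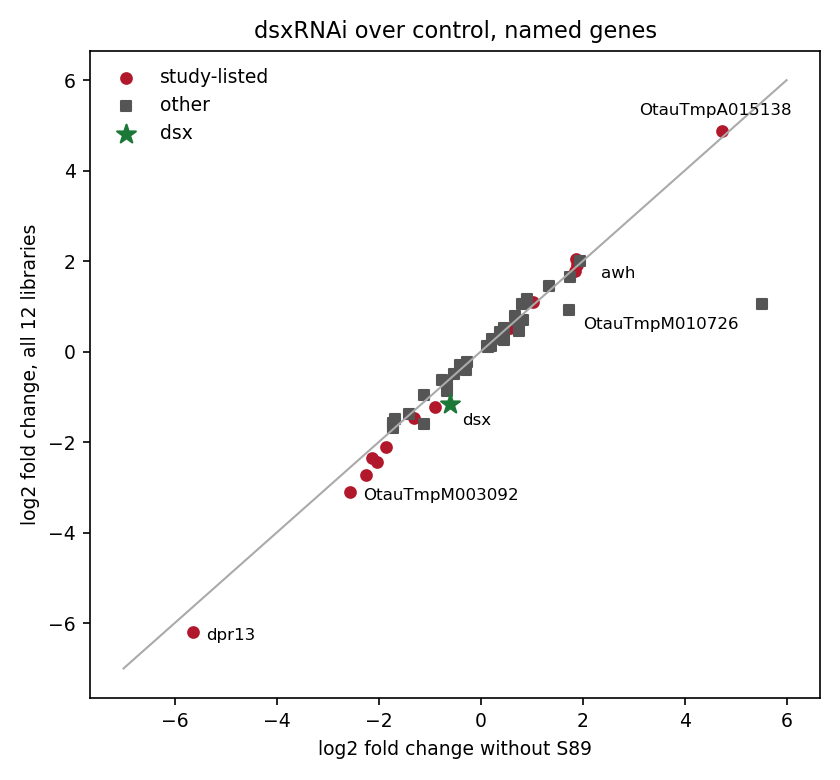
The log2 fold change (dsxRNAi over control) of the named genes from all 12 libraries (y axis) against that without S89 (x axis), with genes that the study lists in red, others in grey, dsx as a green star and equality as a line. Most points lie near the line, dpr13 at −6.20 and −5.63, while dsx (−1.16 and −0.61) and OtauTmpM010726 (1.05 and 5.51) lie off it.

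The study lists 42 genes for this comparison, 18 as higher and 24 as lower after dsxRNAi. The study chose them on these same samples, so their direction is not independent evidence. The filter on low counts let 23 of them through, 8 listed as higher and 15 as lower, and of these 7 and 14 had an unadjusted p under 0.05 and 1, dpr13, was called by edgeR, against 0.0101% of all genes. DESeq2 with the 12 libraries called 12 of the 42 in the listed direction, against 0.151% of all genes it tested. With 96 libraries in one fit, DESeq2 called 39 of the 42 in the listed direction, among 42 genes called in all. The groups did not overlap in 5 of the 42, awh higher and dpr13, OtauTmpM003092, OtauTmpM013279 and OtauTmpM003427 (not tested) lower, against 0.141% of all genes tested. Log2 fold changes of the 23 ran from −6.20 to 4.87. The 19 that were not tested had low counts in most libraries, and in 9 of the 42 a single library held more than 50% of the gene's reads over the 12 libraries. OtauTmpM004237, for example, had 101 CPM in S85 and 1.2 to 7.79 CPM in the other controls, against 0.325 to 6.43 CPM after dsxRNAi. OtauTmpM009401 is not among these 9, but it had 268 CPM in S73, whereas all other 11 libraries lay between 40.4 and 67.6 CPM. In the independent libraries of male genitalia 27 of the 42 were tested, and 5 had an unadjusted p under 0.05 there, 1 in the direction listed for females and 4 in the other, against 6.23% of 10049 genes tested in males, of which none (0.0%) was called by edgeR (DESeq2 called 35 higher and 15 lower).

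Of the 42 genes, 13 lie in 7 pairs of next neighbours among listed genes, each pair on 1 strand of 1 scaffold. The pairs include OtauTmpM003427 with hig (30124 bp apart), OtauTmpM005613 with dscam4 (13579 bp), OtauTmpA006141 with the homeobox gene six3 (20519 bp), OtauTmpM000135 with cg42260 (15338 bp) and a run of 3 genes on scaffold 785. Their correlations over the 12 libraries were 0.88 to 0.98. Whether such neighbours are separate transcription units was not tested. The untested gene six3 had 0.0 to 0.108 CPM after dsxRNAi, against 1.19, 2.09, 0.0, 1.37, 6.14 and 1.55 CPM in controls, and its neighbour OtauTmpA006141 had 0.0 to 0.295 CPM after dsxRNAi, against 2.19, 2.19, 0.0, 3.34, 7.51 and 2.14 CPM in controls, with S87 the control without a read in both.

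Lists of genes by function were then counted. Of the sex determination genes, 4 of 6 matched members were tested and none reached an unadjusted p under 0.05, among them fru (19.9 ± 3.72 CPM after dsxRNAi and 17.7 ± 2.58 CPM in controls) and sxl (2.36 ± 0.612 CPM after dsxRNAi and 2.12 ± 1.02 CPM in controls, SD, n = 6 each). The doublesex relatives dmrt93b and dmrt99b were listed at 0 in all 12 libraries. None of the 6 Hox genes and cofactors reached that level, with abd-b at a log2 fold change of 0.27 (unadjusted p = 0.164) and abd-a at −1.61 (unadjusted p = 0.0849, or −1.11 without S89).

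Of 24 matched genes that pattern the genitalia and terminalia, 20 were tested and 2 (awh and ara) had an unadjusted p under 0.05, both higher, beside 2.56% of all genes tested, and none was called. The study lists awh for this comparison, and without the genes it lists, 19 were tested and 1 (ara) had such a p. The median log2 fold change of the 20 was −0.04, and 0.08 without S89. For the 19 it was −0.06, and 0.06 without S89. The ecdysone pathway had no such gene among 21 tested, with the hydroxylases sad and shd, which carry out late steps of ecdysteroid synthesis, at −0.97 and −1.52 (unadjusted p = 0.0598 and 0.0956). Without S89 these 2 were at −1.10 and −1.76 (unadjusted p = 0.0381 and 0.0489), beside 2.96% of all genes tested with an unadjusted p under 0.05. Most of the ecdysone list went the other way, with 14 of the 21 positive and 7 negative. Its median log2 fold change was 0.15, or 0.09 without S89. Cuticle and chitin genes (24 tested), tanning genes (9), yolk and eggshell genes (3), stress genes (7) and immunity genes (12) had none in either direction.

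The cell cycle list shows how far 1 library moves these values. None of its 24 genes had an unadjusted p under 0.05 with or without S89. With all libraries 8 had a positive log2 fold change and the median was −0.06, whereas without S89 all 24 were positive and the median was 0.33, beside 0.0283 for all genes tested. Its summed level was 612 to 2010 CPM after dsxRNAi, against 595 to 2580 CPM in controls or 595 to 1330 CPM without S89.

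Markers of other cell types were counted as well. Muscle markers (20 tested) had a median log2 fold change of −0.18, or −0.32 without S89, and sums of 5910 to 14600 CPM after dsxRNAi, against 6090 to 16000 CPM in controls. None had an unadjusted p under 0.05 with all libraries, and without S89 tm2 (tropomyosin) and mlc2 (myosin light chain) did, at −0.75 and −0.71. Of 7 fat body markers tested, desat1 (a fatty acid desaturase) and lsd-1 (a lipid droplet perilipin) had log2 fold changes of −0.88 and −1.22 (unadjusted p = 0.0172 and 0.0205). Over all genes tested, 2.56% had an unadjusted p under 0.05. Most of the fat body list was lower, with 6 members negative and 1 positive and a median log2 fold change of −0.26. Without S89 all 7 were negative and the median was −0.34. The list's sum was 291 to 641 CPM after dsxRNAi, against 413 to 794 CPM in controls. Of 8 hemocyte markers, pxn (peroxidasin, an enzyme of the basement membrane) was at −0.69 (unadjusted p = 0.00737), with sums of 2500 to 4890 CPM after dsxRNAi, against 2000 to 4790 CPM in controls. The hemocyte list was split, with 4 members higher and 4 lower. Its median log2 fold change was −0.02, or −0.2 without S89. Glia (4 tested), trachea (6), germline and ovary (6) and gut and Malpighian tubule markers (4) had none. No member of these lists was called, and the part of these cells in the results above was not tested.

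The same treatment was compared in other female tissues, which share no library with the genitalia but were dissected from the same set of pupae. No gene was called in female head horns (0 of 9148, 637 with an unadjusted p under 0.05, 6.96%), thoracic horns (0 of 8954, 200, 2.23%) or brains (0 of 9999, 356, 3.56%). DESeq2 made 48 calls in the head and thoracic horns together. The count of sex-biased genes in control genitalia depended on S89, with 1028 of 10014 called (10.3%) with it and 4568 of 10113 (45.2%) without it.

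Lastly, 2 genes, picked out after their values were seen, were present in some libraries and at or near 0 in others in every tissue. OtauTmpM011635 (OTAU011635, scaffold 849, from 2870 to 5844) had no read in 5 dsxRNAi libraries and 157 reads (13.4 CPM) in S76, whereas controls had 6.97, 11.1, 11.1, 4.97, 7.91 and 5.02 CPM. Its log2 fold change was −1.77 with all libraries (adjusted p = 1.0) and −9.19 without S76 (adjusted p = 0.00556), a fitted value against a group without reads that is no bound. In each of the 4 tissues exactly 1 of the 6 dsxRNAi female libraries exceeded 10 CPM, and 4 of the 6 control male libraries had no read. OtauTmpM010726 (OTAU010726, scaffold 667, from 46126 to 51410) had 66.5, 1.35, 94.8, 3.0, 52.2 and 2.36 CPM after dsxRNAi, against 0.597, 1.1, 1.16, 0.0, 102 and 1.11 CPM in controls. In each tissue 3 dsxRNAi and 1 control female libraries exceeded 10 CPM, and no male library did. All 4 tissues were taken from the same set of pupae, but which libraries belong to 1 pupa is not given in the sources used here, and treatment and the individual cannot be told apart for such genes.

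**Figure D5:**
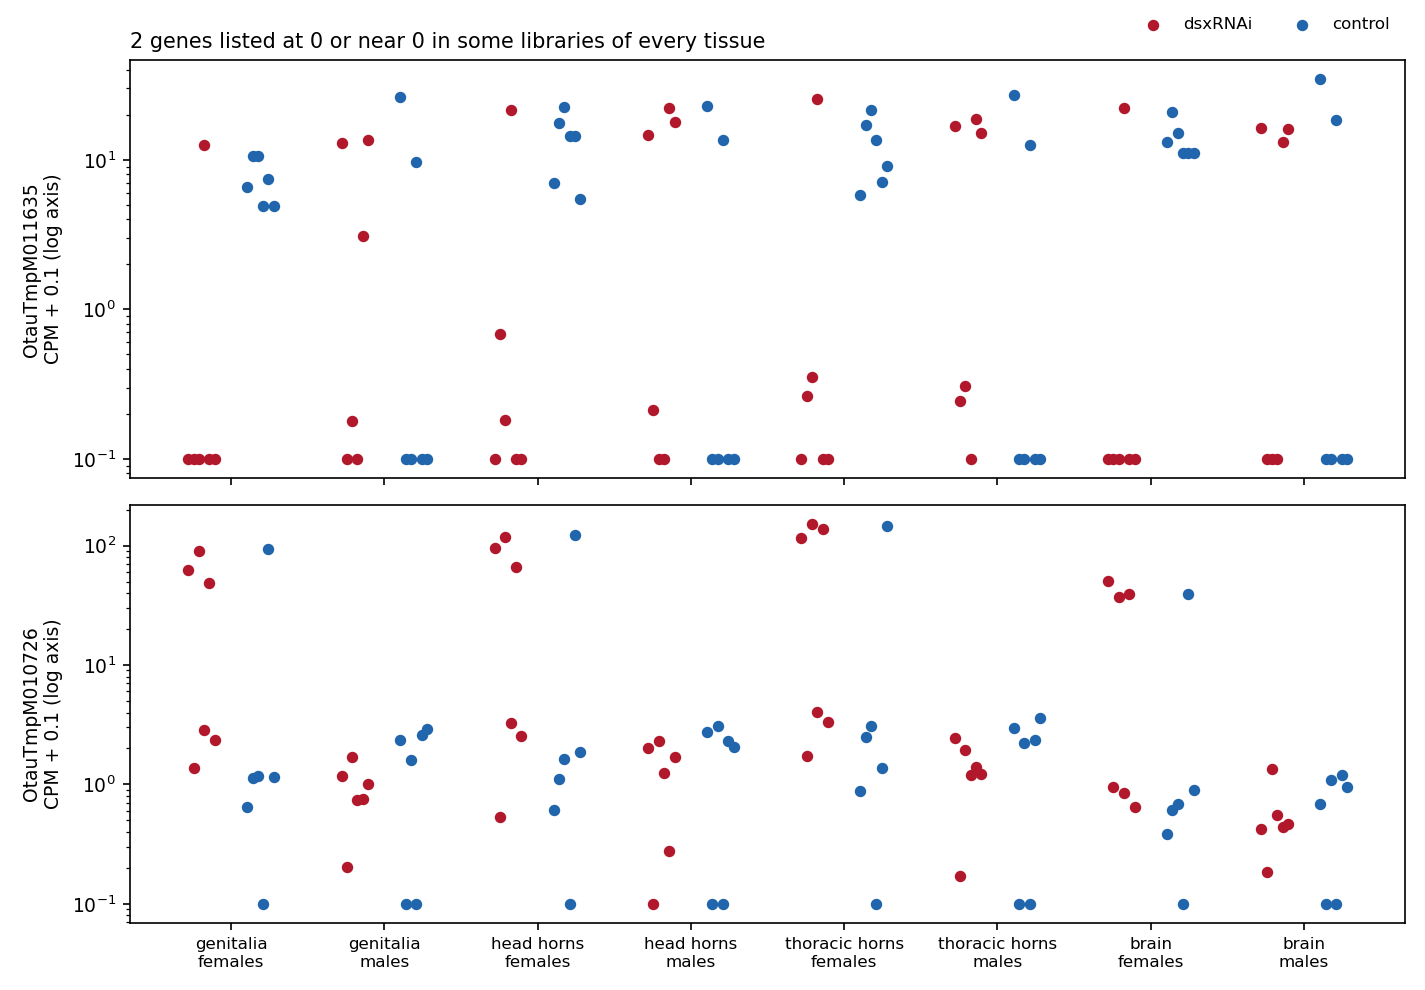
CPM + 0.1 (log axis, scaled over 96 libraries) of OtauTmpM011635 (top) and OtauTmpM010726 (bottom) in every library of the 8 combinations of tissue and sex, dsxRNAi in red to the left of control in blue. In every tissue 1 of 6 dsxRNAi female libraries is above 10 CPM in the upper panel, and 3 dsxRNAi and 1 control female libraries are in the lower one.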

How the data were processed

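Counts per gene were analysed for the 12 female genitalia libraries, with the other tissues and males as background for levels. The authors trimmed single-end reads of a stranded mRNA library with Trimmomatic 0.32, aligned them with TopHat2 2.1.0 to the O. taurus genome v0.5.3 and deposited raw counts from HTSeq 0.6.1p1. Whether counting used strand is not given in the sources used here, so overlapping and antisense genes cannot be told apart. The deposited FPKM values, which the authors made with DESeq2, were not analysed, and their table gave gene names and positions only (19 names are shared by 38 genes). Depth ran from 5818852 to 12547995 reads per library and limits genes of few reads. Limits from a count of 0 use 3 reads and cover counting error only.

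The test across all genes was edgeR 4.0.16 (quasi-likelihood, TMM, filterByExpr, robust) in R 4.3.3, with no covariate, with a threshold of 0.05 on p after Benjamini-Hochberg adjustment. The dsx level was compared with an exact permutation test over libraries (all arrangements enumerated in Python 3.11.15). Each library came from its own pupa, and the labels name no batch. Alternatives were leaving out S89, S76 or any single library, DESeq2 1.42.0, limma 3.58.1 with voom and sample weights, DESeq2 size factors, no filter, 24 or 96 libraries in one fit, and the first principal component of log2(CPM + 1) as a covariate. Chosen after seeing the data were the covariate fit without S89, DESeq2 in the horns, and S89 left out or DESeq2 between control sexes. The model code was tested on simulated data.

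Genes named are dsx, the genes called, the 10 with the smallest p each way with all 12 libraries and without S89, the study's listed genes whose groups do not overlap and the 5 each way with the smallest p, and up to 4 members of each of 18 lists. Genes outside this rule are given as examples of single libraries, neighbours or list markers. The comparison, the members and the lists were chosen with earlier results of these data known.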

Additional observations from a re-analysis of the deposited data

Results flagged for a closer look

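Among 36 groups of 6 libraries examined for one value far from the others, 5 had one. The nominal rate of the rule is about 1 in 20, but the groups reuse the same libraries. They are thus not independent, and the 5 cannot be compared with that rate. In control female genitalia, S89 was far above the other libraries in dpr13 (99.5 CPM), in OtauTmpM003092 (77.6 CPM) and in the summed level of the cell cycle and replication list (2580 CPM). In the summed level of the cuticle tanning genes, S77 stood far above the other dsxRNAi libraries (24000 CPM) and S87 far above the other controls (21600 CPM). By the interaction term of edgeR, the response to dsxRNAi differed between female and male genitalia in awh (2.84 on the log2 scale, females minus males, adjusted p = 0.0189). The term also passed in dpr13 (−5.22, adjusted p = 0.00146), but control males were near 0 there, so it does not show that the sexes respond differently.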

How the results depend on the processing

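The count of genes called in female genitalia was 1 with all 12 libraries, without S89, with DESeq2 size factors and without a filter on low counts. It was 2 without S89 and S76 together, 3 with limma's voom and sample weights, 4 with the first component as a covariate (1 in that fit without S89), 5 with 24 libraries in one fit, 17 with DESeq2, 20 with DESeq2 without S89 and 42 with DESeq2 over 96 libraries, and from 1 to 2 when single libraries were left out (2 without S76). The interaction was called in 2 genes, and in 18 with DESeq2. Male genitalia had 0 calls, 50 with DESeq2 and from 0 to 1 when single libraries were left out (1 without S84). The female horns had 0 calls and 48 with DESeq2. Between control sexes 1028 genes were called, 4568 without S89 and 2743 with DESeq2. The ratio of dsx was 0.447, 0.657 without S89 and from 0.355 to 0.526 when any other single library was left out. The cause of these differences was not tested. Over the 50 named genes that were fitted, 439 of the alternative values kept direction and side of the threshold, 49 passed it only in the alternative, and 0 reversed. Only dpr13 was called with all 12 libraries, so keeping the side of the threshold mostly means staying uncalled. Many of these genes were picked by their p in the same libraries, so the lack of reversals is not independent evidence. No paired analysis was possible because library numbers run on through the series and no number recurs in both groups. Depth limits genes of few reads, such as dpr13 after dsxRNAi (30 reads in 6 libraries).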
